A study of Arabidopsis thaliana with 30 samples.

Results

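The chloroplast genome of Arabidopsis thaliana encodes part of the photosynthetic apparatus and part of the machinery that expresses it. Probe sets of the ATH1 array were taken as plastid-encoded where the array's annotation gives them a single gene symbol, in the lower-case spelling of organelle genes, that begins with psa, psb, pet, ndh, rpo or ycf, or that is rbcL, accD, clpP, matK, an atp gene of the chloroplast genome or a rpl or rps gene of the chloroplast genome. This rule found 67 probe sets for 67 genes among 22810 probe sets, all 67 on the plastid chromosome, for which RefSeq lists 85 protein-coding genes. By role, 45 are photosynthesis genes: 15 of photosystem II, 5 of photosystem I, 6 of the cytochrome b6f complex, 6 of the ATP synthase, 10 of the NDH complex, rbcL of Rubisco, and the photosystem I assembly factors ycf3 and ycf4. A further 19 are gene-expression genes, 4 for the plastid RNA polymerase and 15 for plastid ribosomal proteins, and 3 have other roles (accD, clpP and matK). The rule reads only gene names and the chromosome, but it was set with earlier results of these data known.

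Plastids transcribe their genome with RNA polymerases of different origin. The plastid-encoded polymerase, a bacterial-type enzyme whose core is encoded by rpoA, rpoB, rpoC1 and rpoC2 and which takes its sigma factors from the nucleus, transcribes mainly photosynthesis genes, while a phage-type polymerase encoded in the nucleus transcribes the rpoB operon and contributes to other housekeeping genes. Most plastid genes lie in polycistronic units, so that neighbouring genes can share a transcript and are not independent. Photosystem II splits water, the cytochrome b6f complex passes electrons on to photosystem I, the ATP synthase uses the resulting proton gradient, Rubisco fixes carbon, and the NDH complex returns electrons to the chain. Leaves carry chloroplasts, and roots carry non-green plastids in which the photosynthetic apparatus is largely absent.

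The plants were wild type, ecotype Columbia-0. Root segments or aerial organ segments were cut from 10-day-old seedlings that had grown on solid MS medium at 22 °C in a cycle of 16 h light and 8 h dark, and were placed on medium that induces callus, a proliferating tissue, for 0, 12, 24, 48 or 96 h. Each of the 10 groups of organ and time had 3 arrays, which the labels call biological replicates. No group was kept off the medium, so that a change from 0 h cannot be told apart from an effect of cutting or of age. At 12 h it also cannot be told apart from an effect of the time of day, whereas 24, 48 and 96 h are whole days after 0 h. Total RNA was extracted and about 5 µg was labelled as biotinylated cRNA; the sources used here do not say how the RNA was primed, and, as background, most plastid transcripts carry no long poly(A) tail.

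The values are MAS5 signal on a linear scale, scaled to the same trimmed mean on every array, and the fits used log2(signal + 22). Median signal ran from 139.1 to 182.7 over the 30 arrays, and arrays of a group correlated at 0.932 to 0.977. Of the 67 genes, 63 had at least 3 arrays above a signal of 87.4 and were tested. The other 4, rpoB, rps14, petD and ndhF, were too dim and have values but no test. A gene was called at a Benjamini-Hochberg adjusted p below 0.05 from limma over all 16765 probe sets tested. The p-values speak only of the spread among the arrays at hand. Each comparison with 0 h within an organ uses the same 3 arrays of 0 h, so the times are not independent of each other.

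The 67 genes together made up 2.31% to 2.81% of the summed signal in aerial explants at 0 h, 0.92% to 1.29% in aerial explants at 96 h, and 0.29% to 0.50% in the 15 root arrays. Within the aerial course, replicate 2 at 12 h and replicate 2 at 24 h stood apart, at 1.30% and 1.28%, where the other 4 arrays of these times lay between 1.83% and 2.22%. In these 2 arrays the actin control's 3′ probe set exceeded its 5′ probe set by 4.89 and 4.96 (log2), against 3.99 to 4.23 in the other 4, and their median signals of 139.1 and 146.0 were the lowest of their groups. For the GAPDH control the same measure was 0.651 and 0.929 in these 2 arrays and 0.172 to 0.865 in the other 4. The aerial arrays of 0 h, with a higher plastid share, had actin values of 4.71 to 5.02. The part of these measures in the lower plastid signal of the 2 arrays was not tested. Results at 12 h and 24 h are therefore given with and without these arrays, an alternative chosen after the data were seen. In these bulk samples fewer plastids or cells of a type and less RNA per plastid or cell cannot be told apart.

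At 0 h, before culture, the plastid-encoded genes were higher in aerial than in root explants. Of the 63 tested, 54 were lower in root explants, against 30.2% of all tested probe sets, and 0 were higher, against 31.9%. The unadjusted p was also below 0.05 for 54. Some of the 63, among them atpI, petN, psbT and psbN, had no root array above 87.4 at any time. They passed the filter only through aerial arrays, so a higher root signal was hardly possible for them, here and at later times. The median difference over the 67 genes was −2.50 on the log2 scale, root minus aerial, and that of all tested probe sets was 0.047. By role the median was −2.54 for the 45 photosynthesis genes (37 of 43 tested were lower) and −2.50 for the 19 gene-expression genes (16 of 17 were lower). The mean difference of the photosynthesis genes was the larger in size by 0.44.

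All 15 photosystem II genes were lower in root explants at 0 h, with a median difference of −3.63. The 0 h signal of psbZ, a small photosystem II subunit, was 7435, 7524 and 9170 in the aerial arrays and 142.8, 154.0 and 78.8 in the root arrays, a log2 difference of −5.81 ± 0.219 (SE, n = 3 arrays a group; adjusted p = 3.87e-19), the largest among the 67. The signal of psaB, which encodes a reaction centre subunit of photosystem I, was 28507, 22330 and 20827 in aerial explants and 679.6, 992.8 and 729.5 in root explants (log2 difference −4.87 ± 0.296). No array of either organ overlapped the other for these 2 genes.

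Of the tested genes 9 did not pass the test at 0 h, namely 6 photosynthesis genes, 2 other genes and 1 gene-expression gene. Some of them, among them the photosynthesis genes ycf4 and atpF, were measured well above the dimmest signals. For ycf4 the 0 h signals were 465.4, 291.9 and 554.7 in aerial explants and 355.6, 750.5 and 409.1 in root explants (difference 0.17). For atpF they were 776.5, 423.8 and 1084 in aerial explants and 415.8, 690.7 and 473.4 in root explants (difference −0.45). For clpP, the proteolytic subunit of the plastid Clp protease, the 0 h signals were 15517, 11466 and 8816 in aerial explants and 7125, 9121 and 7862 in root explants, which overlap, and the difference of −0.54 ± 0.312 did not pass the test (adjusted p = 0.136). For accD, a subunit of the acetyl-CoA carboxylase that feeds fatty acid synthesis, they were 692.3, 281.0 and 1107 in aerial explants and 1108, 1322 and 957 in root explants (difference 0.87 ± 0.530, adjusted p = 0.158). For rps18, a ribosomal protein of the small subunit, they were 1567, 999.7 and 986.3 in aerial explants and 602.0, 1033 and 765.3 in root explants (difference −0.55 ± 0.430, adjusted p = 0.271).

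**Figure D1:**
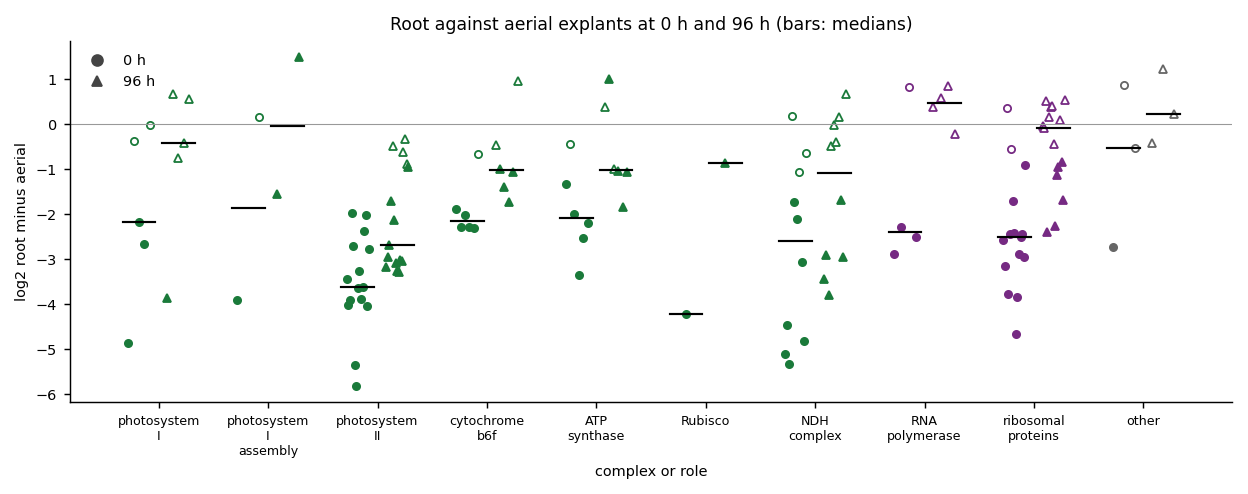
Root minus aerial difference (log2, vertical axis) of each plastid-encoded gene at 0 h (circles) and 96 h (triangles), grouped by complex or role, with bars at the medians. The photosystem II median lies at −3.63 at 0 h and −2.69 at 96 h, whereas the gene-expression genes have a median of −2.50 at 0 h and −0.03 at 96 h.

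In aerial explants the plastid-encoded genes fell during culture, and 0 rose at any time. At 96 h 57 of 63 had fallen, against 18.6% of all tested probe sets, with a median change of −1.65 over the 67 genes and of 0.128 over all tested probe sets. The 6 that did not pass the test at 96 h were psbA, psbJ, psbK, psbM, psaC and petL, with changes between −1.13 and −0.46. For 58 of the 67 genes each of the 3 arrays at 96 h lay below each of the 3 arrays at 0 h, as for 22% of all tested probe sets.

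**Figure D2:**
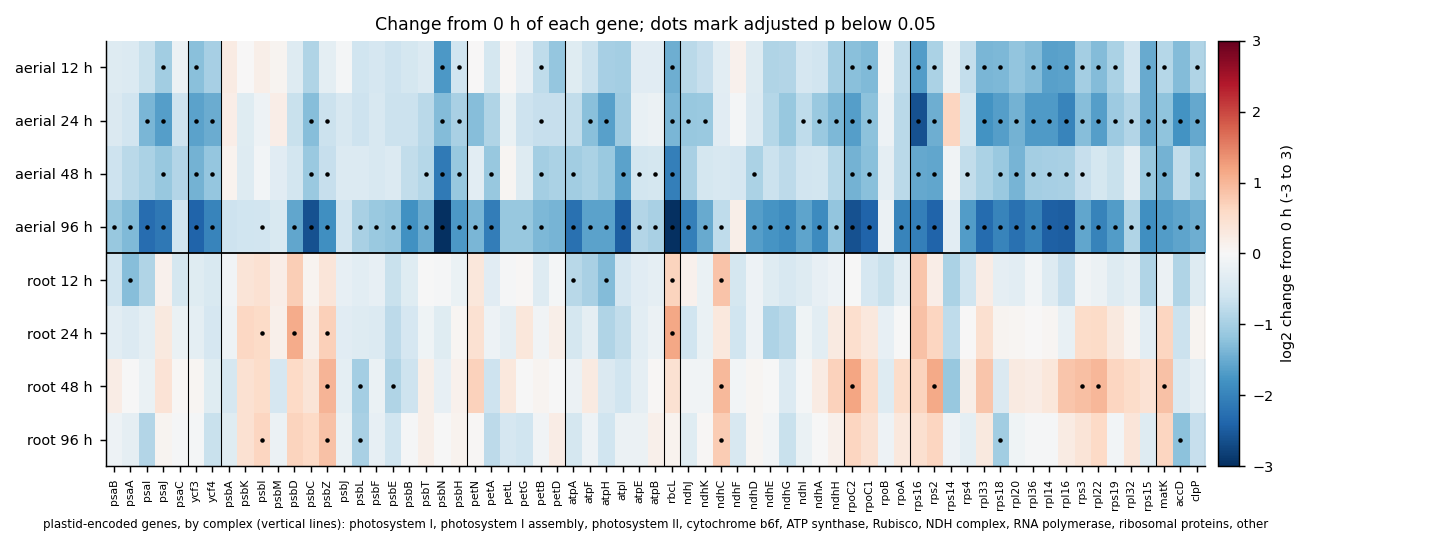
Change from 0 h (colour, log2 from −3 to 3) of each plastid-encoded gene in root and aerial explants at 12, 24, 48 and 96 h, ordered by complex, with dots where the adjusted p is below 0.05. The aerial rows are blue with 57 called genes at 96 h, whereas the root rows hold between 4 and 9 called genes at each time.

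At 96 h the fall was called in 37 of 43 photosynthesis genes (median −1.51 over 45) and in 17 of 17 gene-expression genes (median −2.003 over 19). Among complexes the median was −1.19 for photosystem II (11 of 15 fell), −1.32 for photosystem I (4 of 5), −1.36 for cytochrome b6f (4 of 5 tested), −1.61 for the ATP synthase (6 of 6), −1.61 for the NDH complex (9 of 9 tested), −2.003 for ribosomal proteins (14 of 14 tested) and −2.19 for the RNA polymerase (3 of 3 tested). Over 41 other settings of the analysis 47 of the 57 calls held in every setting in which the gene was tested. Genes too dim for a stricter filter, such as psbT and rps16, were not tested in that setting and count as held there. The calls of psbI, psbL, petN, petG, psaA, ndhC, ndhH, atpH, accD and rpl32 were lost in at least 1 setting.

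The largest fall was that of rbcL, the large subunit of Rubisco. Its signal in aerial explants was 9385, 7632 and 8636 at 0 h, 3008, 2882 and 3340 after 12 h, 3326, 3084 and 3419 after 24 h, 2449, 2142 and 1603 after 48 h, and 873.3, 844.1 and 931.8 at 96 h. The arrays of 0 h lie above all later arrays, those of 12 h and 24 h overlap, and those of 96 h lie below all others. Its change had reached −1.47 ± 0.235 by 12 h (adjusted p = 2.45e-05). By 96 h it was −3.24 ± 0.235 (adjusted p = 4.88e-12).

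Within photosystem II the genes differed widely at 96 h. The signal of psbN, which is needed for assembly of the photosystem II reaction centre, went from 1216, 1085 and 772.1 at 0 h to 285.0, 277.3 and 300.7 after 12 h and 122.8, 107.8 and 57.4 at 96 h, a change of −3.17 ± 0.375 (adjusted p = 5.28e-08). That of psbB, for the core antenna protein CP47, went from 527.8, 355.7 and 676.9 at 0 h to 113.8, 117.1 and 158.1 at 96 h, a change of −1.81 ± 0.371. Both genes lay lower in every array of 96 h. For psbA, which encodes the D1 reaction centre protein that is replaced continually in the light, the signal was 1363, 978.3 and 1387 at 0 h, between 1129 and 1626 in the 9 arrays from 12 h to 48 h, and 747.3, 966.9 and 683.0 at 96 h. All 3 arrays of 96 h were below those of 0 h, 1 of them narrowly, and the change of −0.62 ± 0.265 did not pass the test (adjusted p = 0.0578).

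Photosystem I genes also spread. The signal of psaB was 17211, 9101 and 7837 at 96 h, a change of −1.14 ± 0.296 from the 0 h values given above (adjusted p = 0.00225). For psaA, the partner of psaB in the reaction centre, the signals of 388.6, 147.2 and 277.6 at 0 h and 151.6, 93.8 and 44.9 at 96 h overlap, and the called change of −1.32 ± 0.367 was no longer called without replicate 3 of 96 h (−0.96, adjusted p = 0.0512). The small subunit gene psaI had signals of 5626, 3302 and 5029 at 0 h and 1172, 555.6 and 1160 at 96 h, a change of −2.29 ± 0.411 (adjusted p = 3.88e-05). For ycf3, an assembly factor of photosystem I, the signals were 4774, 2252 and 2772 at 0 h and 853.9, 407.2 and 529.6 at 96 h, a change of −2.40 ± 0.340. Neither of the last 2 genes overlapped between 0 h and 96 h.

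The cytochrome b6f gene petB (cytochrome b6) had aerial signals of 23988, 15183 and 16905 at 0 h and 8048, 7370 and 6240 at 96 h, a change of −1.35 ± 0.188 (adjusted p = 8.4e-07). Its neighbour in function petA (cytochrome f) went from 13644, 6823 and 9490 to 3144, 1805 and 2033, a change of −2.08 ± 0.392. Both fell without overlap. In the ATP synthase, atpI, a membrane subunit, went from 739.2, 440.1 and 425.1 to 156.0, 45.8 and 55.5 (change −2.47 ± 0.432), and atpA, the alpha subunit, from 11311, 9784 and 7733 to 3392, 1422 and 1616 (change −2.25 ± 0.300). The beta subunit gene atpB fell less in size and went from 39517, 35891 and 36921 to 25428, 16430 and 16409, a change of −0.98 ± 0.194 (adjusted p = 0.000138). The NDH subunit gene ndhJ went from 4641, 2851 and 3386 to 1214, 541.2 and 904.1, a change of −2.05 ± 0.417 (adjusted p = 0.000188).

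The 3 tested genes for the plastid RNA polymerase fell in aerial explants at 96 h. The signal of rpoC2, the β″ subunit, was 1215, 642.6 and 762.6 at 0 h, 233.3, 234.5 and 696.8 after 12 h, 412.8, 138.5 and 277.0 after 24 h, 199.8, 369.9 and 371.6 after 48 h, and 119.3, 118.1 and 116.9 at 96 h (change at 96 h −2.63 ± 0.366, adjusted p = 8.71e-07). The arrays of 96 h are the lowest of the course. The β′ subunit gene rpoC1 went from 2633, 1477 and 2698 at 0 h to 363.2, 327.8 and 524.4 at 96 h (change −2.40 ± 0.320), and rpoA, the α subunit, from 8793, 7610 and 5599 to 2792, 1331 and 1598 (change −1.98 ± 0.362). For rpoB, the β subunit, the 30 arrays gave no signal above 94.5, so its course was not measured here.

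Among ribosomal proteins rpl16 had the largest fall at 96 h. Its aerial signal was 7185, 4673 and 5920 at 0 h, 3206, 879.3 and 2391 after 12 h, 2273, 1070 and 1271 after 24 h, 2821, 3536 and 2552 after 48 h, and 968.4, 879.9 and 1306 at 96 h (change at 96 h −2.47 ± 0.379, adjusted p = 4.11e-06). The arrays of 48 h lie above those of 96 h and below those of 0 h. The signal of rps2 went from 2747, 1949 and 1682 at 0 h to 465.4, 262.0 and 421.8 at 96 h (change −2.41 ± 0.340), again without overlap. For rps14 the aerial signals were 26.7, 32.3 and 41.8 at 0 h and 16.4, 35.6 and 17.8 at 96 h, too dim for a test.

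Of the other genes, matK, a maturase for group II introns, had aerial signals of 6779, 7275 and 7199 at 0 h and 2445, 1328 and 3252 at 96 h (change −1.68 ± 0.311, adjusted p = 5.72e-05). The signal of clpP was 5985, 2814 and 4446 at 96 h (change −1.46 ± 0.312, adjusted p = 0.00033), below every array of 0 h. The signal of accD was 125.3, 223.5 and 227.0 at 96 h, and its called change of −1.59 ± 0.530 (adjusted p = 0.0156) was not called without replicate 3 of 0 h (−1.16, adjusted p = 0.111) or without replicate 1 of 96 h (−1.34, adjusted p = 0.0755).

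**Figure D3:**
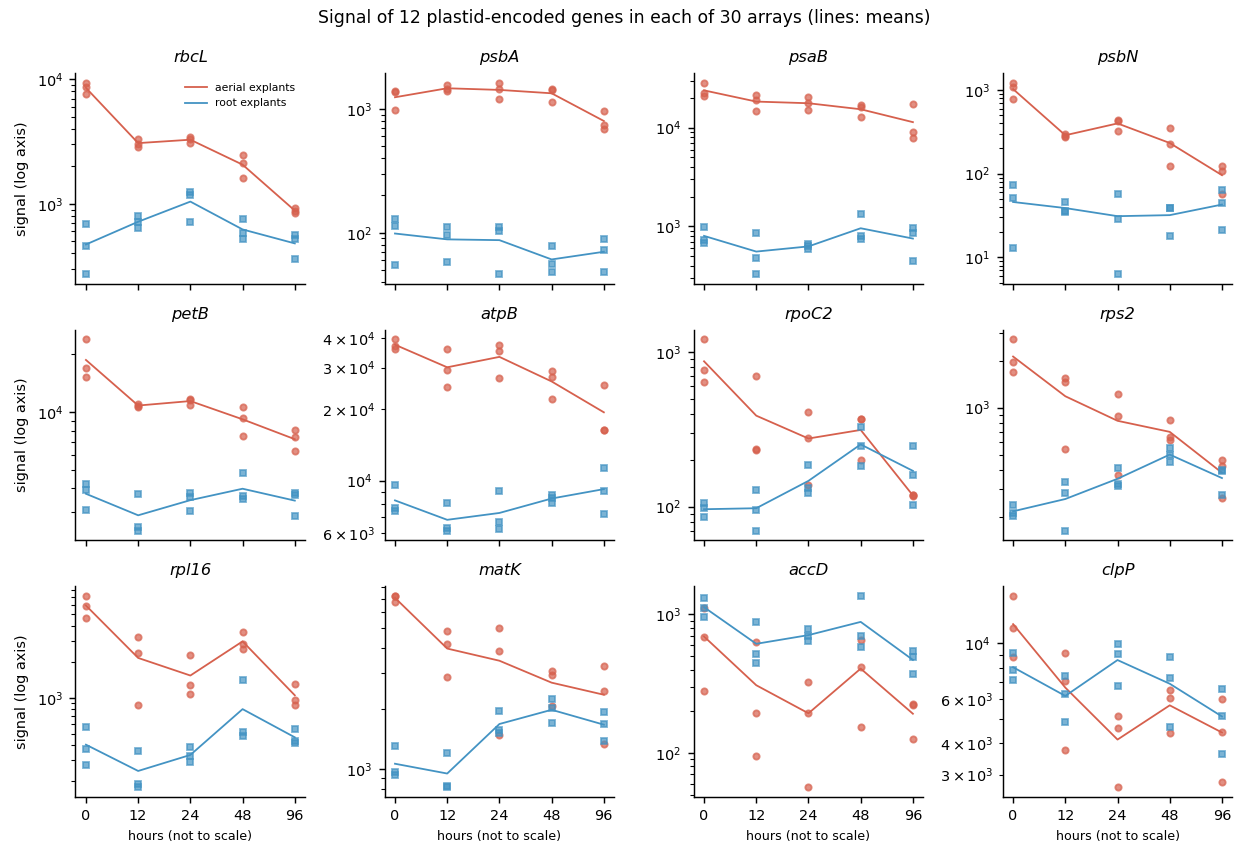
Signal (log axis) of 12 plastid-encoded genes in each of the 30 arrays against hours on callus-inducing medium, with lines through the means of root and aerial explants. For rbcL the aerial arrays descend from between 7632 and 9385 at 0 h to between 844.1 and 931.8 at 96 h, towards the root arrays, which lie between 271.9 and 1242 over all times.

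The fall had a different spread over the roles at the early times. At 12 h 22 of 63 genes had fallen, against 13.8% of all tested probe sets, and these were 14 of 17 gene-expression genes, 6 of 43 photosynthesis genes, matK and clpP. Among them were 12 of 14 ribosomal protein genes, with a median change of −1.29, while 2 of 15 photosystem II genes, 0 of 6 ATP synthase genes and 0 of 9 tested NDH genes were called. This count rests on single arrays. Without replicate 2 of 12 h it was 7 genes with 4 gene-expression genes, without replicate 1 of 0 h it was 9 genes with 6 gene-expression genes, and without both low arrays 8 genes, of which 5 were gene-expression genes and 3 photosynthesis genes. Leaving out any single array, between 3 and 8 photosynthesis genes were called at 12 h.

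At 24 h 35 genes had fallen (17 photosynthesis, 15 gene-expression and 3 other genes), against 12.4% of all tested probe sets, and at 48 h 30 had fallen (16, 12 and 2), against 14%. Without replicate 2 of 24 h the count at 24 h was 17, without replicate 1 of 0 h it was 20, and without both low arrays 19, of which 5 were photosynthesis genes. The photosynthesis genes called at 24 h numbered 5 without either of these single arrays and 9 without replicate 3 of 0 h. The count at 48 h was 13 without replicate 1 of 0 h, 14 without replicate 1 of 48 h, and 19 without replicate 3 of 0 h or of 48 h. At 96 h it stayed between 50 and 58 whichever single array was left out.

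From 48 h to 96 h, a step tested after the data were seen, 16 genes fell further, 9 of them gene-expression genes and 7 photosynthesis genes, against 4.01% of all tested probe sets. They included rpl16 (−1.49 ± 0.379), rpl22, a ribosomal protein of the large subunit (−1.48 ± 0.336), rbcL (−1.19 ± 0.235), psbZ (−1.16 ± 0.219) and rpoC2 (−1.21 ± 0.366).

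In root explants few plastid-encoded genes were called, a share below that of the array as a whole at each time. Of 63 tested genes 5 were called at 12 h (2 rose, 3 fell), 4 at 24 h (4 rose), 9 at 48 h (7 rose, 2 fell) and 6 at 96 h (3 rose, 3 fell), against 37.3%, 44.9%, 51.3% and 57.1% of all tested probe sets. With limma's unadjusted p below 0.05 the counts were 10, 7, 12 and 8. Some of the 63, such as atpI and psbN, passed the filter only through aerial arrays. A root change could hardly be called for these. In each root group between 11 and 14 of the 67 genes had all 3 arrays at or below 87.4. Without the 2 low aerial arrays, which enter the shared estimate of the spread, 8 genes were called at 12 h, 9 at 24 h and 11 at 96 h. Single root arrays also moved these counts. At 12 h 1 gene was called without replicate 1 of 12 h, 2 without replicate 3 of 12 h, and 3 without replicate 2 or 3 of 0 h. At 24 h 7 were called without replicate 2 of 0 h and 2 without replicate 3 of 0 h or of 24 h, and at 96 h 1 was called without replicate 3 of 96 h.

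At 48 h the rises in root explants were in matK, rps2, rps3, rpl22, rpoC2, ndhC and psbZ. The root signal of rps2 was 211.2, 202.3 and 236.9 at 0 h, 163.1, 331.7 and 285.0 after 12 h, 325.2, 315.3 and 410.4 after 24 h, 448.1, 555.5 and 498.1 after 48 h, and 273.8, 390.7 and 397.8 at 96 h. The change by 48 h was 1.13 ± 0.340 (adjusted p = 0.00666), with every array of 48 h above every array of 0 h. By 96 h it was 0.64 ± 0.340, which did not pass the test (adjusted p = 0.11). For rpoC2 the root signals were 105.3, 85.5 and 97.7 at 0 h and 329.6, 182.3 and 246.6 at 48 h, again without overlap (change 1.19 ± 0.366, adjusted p = 0.00778).

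The root signals of matK were 964.3, 1299 and 931.5 at 0 h and 1689, 2225 and 2002 at 48 h, a change of 0.88 ± 0.311 (adjusted p = 0.0188) with no overlap, which was not called without replicate 1 (0.82, adjusted p = 0.0585) or 3 of 0 h or replicate 2 of 48 h. For psbZ they were 264.4, 277.3 and 266.8 at 48 h and 223.6, 269.6 and 236.7 at 96 h, higher in every array than at 0 h. Its change was 1.03 ± 0.219 at 48 h and 0.89 ± 0.219 at 96 h (adjusted p = 0.00107), the only root call at 96 h that held in all 41 other settings. The level of psbZ in root explants remained far below that in aerial explants at 96 h (difference −3.07 ± 0.219).

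The median change of the gene-expression genes in root explants was −0.32 at 12 h, 0.07 at 24 h, 0.56 at 48 h and 0.25 at 96 h, and that of the photosynthesis genes was −0.25, −0.20, −0.01 and −0.12. The medians of all tested probe sets were 0.10, 0.15, 0.204 and 0.26, and centring each array on its median moved the last 2 by −0.136 and −0.219. With arrays centred the gene-expression median was 0.43 at 48 h and 0.03 at 96 h, and with quantile normalization it was 0.47 and 0.005, so at 96 h it lay near the array as a whole. The photosynthesis median at 48 h was −0.15 with centring and 0.05 with quantile normalization, and had no settled sign.

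Few genes fell in root explants. At 12 h psaA, atpH and atpA fell, by 1.27, 1.30 and 0.83 on the log2 scale. At this time the probe set for 25S ribosomal RNA, one of the array's controls, read between 1853 and 8772 in the 3 root arrays. It read 12184 to 13619 in root explants at 0 h and 11481 to 17189 at 24 h. At 48 h it read 6287.5 to 13823.9, which overlaps the arrays of 12 h. Its part in the result was not tested. At 96 h accD, psbL (a small photosystem II subunit) and rps18 fell. The root signal of accD was 373.0, 491.6 and 544.5 at 96 h, below every root array of 0 h (change −1.23 ± 0.530, adjusted p = 0.0485), and that of rps18 was 342.9, 402.6 and 355.6 (change −1.05 ± 0.430, adjusted p = 0.0381). The root signal of psbL was 382.8, 202.3 and 240.2 at 0 h and 142.8, 140.0 and 96.5 at 96 h (change −0.97 ± 0.312, adjusted p = 0.00929). The call of accD was lost without any 1 of the 6 arrays compared (−1.34 to −1.08, adjusted p = 0.0621 to 0.135) and in other settings. That of rps18 was lost without replicate 2 (−0.85, adjusted p = 0.142) or 3 of 0 h or any array of 96 h, and that of psbL without replicate 1 of 0 h (−0.72, adjusted p = 0.0744) or replicate 3 of 96 h (−0.82, adjusted p = 0.0527).

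The root signal of rbcL rose and returned. It was 271.9, 686.9 and 455.8 at 0 h, 710.3, 640.1 and 804.7 after 12 h, 716.5, 1170 and 1242 after 24 h, 523.8, 759.5 and 586.0 after 48 h, and 360.5, 560.3 and 522.4 at 96 h. The 3 arrays of 24 h lay above all of 0 h (change 1.16 ± 0.235, adjusted p = 0.000193), and the arrays of 96 h overlapped those of 0 h (change 0.10 ± 0.235, adjusted p = 0.75). Most other photosynthesis genes named above moved little in root explants. Over the 15 root arrays the signal of petB lay between 2410 and 4796, and its change of −0.12 ± 0.188 at 96 h did not pass the test (adjusted p = 0.616). That of atpB lay between 6157 and 11353 (change at 96 h 0.14 ± 0.194, adjusted p = 0.548). Those of psbB, atpI and ndhJ lay between 9.3 and 107.2, between 0.7 and 52.0 and between 22.2 and 141.3, near the dimmest signals. The polymerase genes rpoA and rpoC1 were well measured in root explants, at 566.5 to 2295 and 289.7 to 905.8, with changes at 96 h of 0.31 ± 0.362 and 0.45 ± 0.320 that did not pass the test (adjusted p = 0.481 and 0.233). The root arrays of ndhC, an NDH subunit gene, lay between 140.5 and 831.8, and its called rise of 0.76 ± 0.305 at 96 h was lost without replicate 1 of 0 h (0.35, adjusted p = 0.343), without replicate 3 of 0 h and without replicate 2 or 3 of 96 h.

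Over the whole course an F test called 14 of the 63 genes in root explants, 8 of them gene-expression genes, against 65.4% of all tested probe sets, and 51 in aerial explants, against 47.7%. The root count was 9 without replicate 1 of 12 h or replicate 1 of 48 h and 8 without replicate 3 of 48 h. The genes that passed the filter only through aerial arrays are among the 63 here too.

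**Figure D4:**
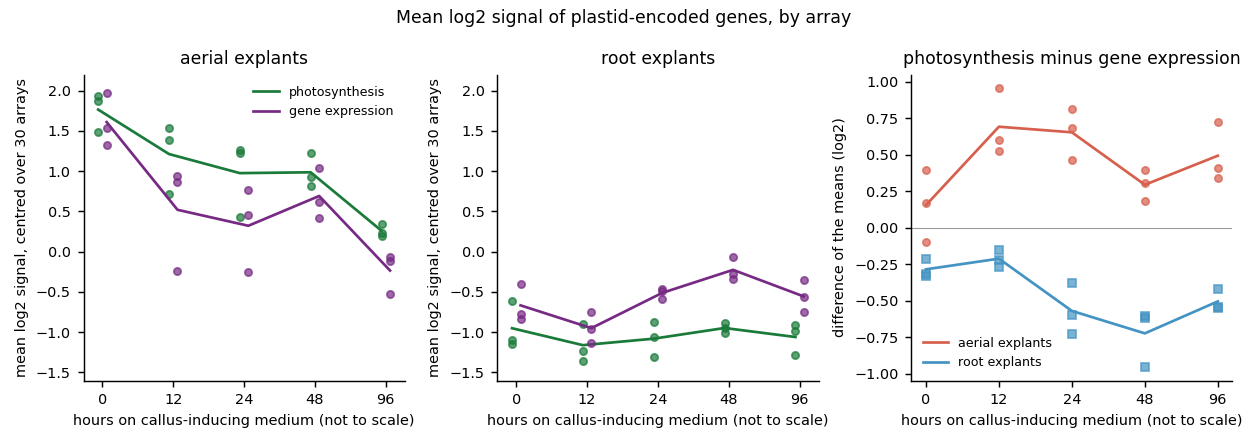
Mean log2 signal of the 45 photosynthesis genes and of the 19 gene-expression genes in each array, each centred on its mean over the 30 arrays, for root and aerial explants, and the difference of these means, against hours on callus-inducing medium. In aerial explants the photosynthesis mean descends from 1.77 at 0 h to 0.26 at 96 h and the gene-expression mean from 1.61 to −0.23, whereas in root explants the photosynthesis mean stays between −1.16 and −0.95.

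The balance between the roles was followed as the mean log2 signal of the 45 photosynthesis genes minus that of the 19 gene-expression genes, each centred on its mean over the 30 arrays. In aerial explants this difference was 0.16 ± 0.249 (SD, n = 3) at 0 h, 0.69 ± 0.230 at 12 h, 0.65 ± 0.176 at 24 h, 0.29 ± 0.107 at 48 h and 0.49 ± 0.205 at 96 h. It was higher at 12 h and 24 h than at 0 h in every array, and the arrays of 48 h and of 96 h overlapped those of 0 h. In root explants it was −0.28 ± 0.064 at 0 h, −0.21 ± 0.058 at 12 h, −0.57 ± 0.177 at 24 h, −0.72 ± 0.197 at 48 h and −0.50 ± 0.073 at 96 h, with every array of 24 h, 48 h and 96 h below every array of 0 h. Every root array lay below every aerial array. No p was computed for these means, since the genes were chosen with earlier results known and many share transcripts.

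The median difference between root and aerial explants over the 67 genes was −2.50 at 0 h, −2.01 at 12 h, −1.45 at 24 h, −1.43 at 48 h and −0.83 at 96 h. At 96 h 32 of 63 genes were lower in root explants, against 21.2% of all tested probe sets, and 2 were higher, against 28.9%, namely atpF (log2 difference 1.00 ± 0.389), a membrane subunit of the ATP synthase, and ycf4 (1.49 ± 0.419), a photosystem I assembly factor. The call of atpF was lost without root replicate 2 (0.88, adjusted p = 0.105), root replicate 3 (0.71, adjusted p = 0.18), aerial replicate 2 (0.85, adjusted p = 0.118) or aerial replicate 3 (1.06, adjusted p = 0.0522). The numbers lower in root explants at 12, 24 and 48 h were 51, 43 and 44, against 25.8%, 25.4% and 24.2%. Higher in root explants were accD at 12 h (1.26 ± 0.530), against 34.4% of all tested probe sets, and accD (2.01 ± 0.530), ycf4 (1.17 ± 0.419), rps18 (1.16 ± 0.430) and clpP (1.08 ± 0.312) at 24 h, against 36.1%. Without the 2 low aerial arrays accD at 12 h (0.69, adjusted p = 0.25), ycf4 (0.66, adjusted p = 0.126) and rps18 (0.67, adjusted p = 0.118) at 24 h were not called. At 96 h 26 of 43 photosynthesis genes were lower (median difference −1.04 over 45), among them 11 of 15 photosystem II genes (median −2.69). Of the gene-expression genes 6 of 17 were lower, all 6 ribosomal protein genes, with a median difference of −0.03 over 19, which lay between −0.32 and 0.09 over the other settings. For the RNA polymerase 0 of 3 were called by limma, and 0 had an unadjusted p below 0.05.

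For rps2 the root and aerial signals at 96 h overlapped, and the log2 difference, −3.14 ± 0.340 at 0 h, was −0.09 ± 0.340 at 96 h (adjusted p = 0.847). For rpoC1 the root signals of 502.7, 670.5 and 651.2 at 96 h overlapped the aerial ones (difference 0.58 ± 0.320, adjusted p = 0.134), and at 0 h the difference had been −2.28 ± 0.320. For psbA, in contrast, the root signals were 89.0, 73.2 and 48.4 at 96 h, and the difference of −3.17 ± 0.265 was close in size to that at 0 h (−3.43 ± 0.265).

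The root change from 0 h was then tested against the aerial change. It was higher in root than in aerial explants for 4 genes at 12 h, 21 at 24 h, 25 at 48 h and 44 at 96 h, against 17.5%, 22.8%, 24.6% and 29% of all tested probe sets, and lower for 0 at each time. The count at 12 h was 2 without root replicate 1 of 0 h and between 7 and 9 without aerial replicate 2 of 0 h, replicate 1 or 3 of 12 h, or replicate 2 of 24 h. The 44 genes of 96 h were 27 photosynthesis genes, 16 gene-expression genes and matK. The largest differences of the changes at 96 h were those of rbcL (3.34 ± 0.333), rpoC2 (3.26 ± 0.517), psbN (3.17 ± 0.530) and rps2 (3.05 ± 0.481). For psbN the root arrays lay between 6.3 and 74.0 at all times, near the dimmest signals of the array, so that a fall in root explants could not have been measured. In the root groups between 11 and 14 of the 67 genes had all 3 arrays at or below 87.4, and in the aerial groups between 3 and 8.

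The changes in aerial explants at 96 h were also read along known transcription units, and their spread differed between units. The units were taken from textbook knowledge, after the values had been seen, and the gene order from RefSeq. The changes of the 7 genes from rps19 to rpoA, a ribosomal protein operon that ends in the polymerase gene, lay between −2.47 and −1.55, and all 7 fell. Those of the 5 genes from rps2 to atpA lay between −2.47 and −1.61, and all 5 fell. Those of psaI, ycf4 and petA lay between −2.29 and −1.98, whereas those of atpB and atpE, which form a unit of their own, were −0.98 and −0.87.

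Within the unit from psbB to petD the changes of the 4 tested genes and of the dim petD lay between −1.81 and −1.35. The gene psbN, which lies within this unit on the opposite strand and is not part of its transcript, fell by 3.17. The unit from ndhH to ndhD, which also holds psaC, spread from −1.90 to −0.60, with 6 of 7 genes called and psaC not called. The changes of ndhC, ndhK and ndhJ ran from −2.05 to −0.76, and those of psbD, psbC and psbZ from −2.60 to −1.55. Those of the 4 genes from psbE to psbJ ran from −1.19 to −0.57. Neighbours were not tested against genes that are not neighbours. In root explants at 48 h the 7 genes from rps19 to rpoA changed by between 0.22 and 1.00, and 2 of them, rps3 and rpl22, passed the test.

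**Figure D5:**
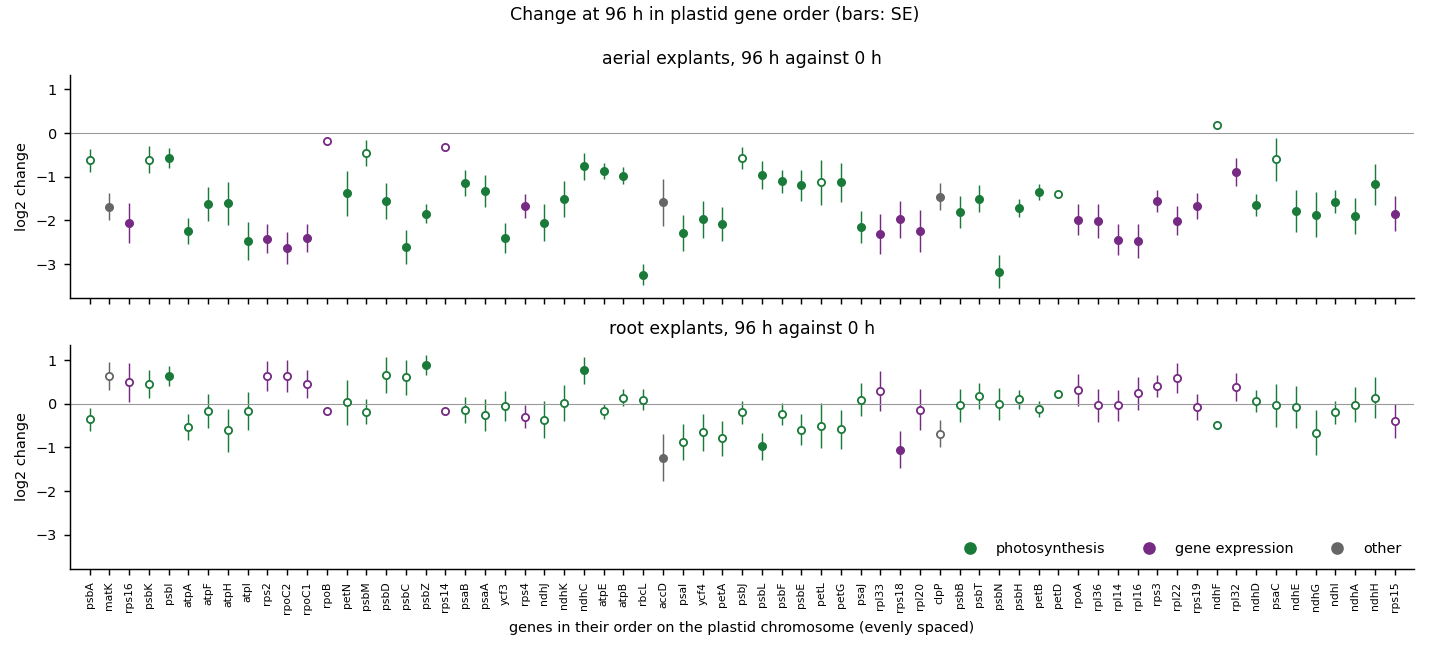
Change at 96 h from 0 h (log2, vertical axis, bars are the SE of the fit) of each plastid-encoded gene in its order on the plastid chromosome, for root and aerial explants, coloured by role. Filled points were called at an adjusted p below 0.05. Open points were not called, and those without a bar were not tested. In aerial explants the ribosomal protein genes from rps19 to rpl36 and rpoA lie between −2.47 and −1.55. In root explants most genes lie near 0.

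The plastid genes work with products of the nuclear genome, and lists of these were set beside them. A listed gene was counted as measured where its locus matched a probe set with a single symbol in the array's annotation, as 13513 of 22810 probe sets have, so that an unmatched gene may still have a probe set on the array. Of 29 listed nuclear genes for plastid ribosomal proteins 5 were measured (PRPL3, PRPL29, PRPL34, PRPS6 and PRPS10). All 5 fell in aerial explants at 96 h (median −2.67), as did 18.6% of all tested probe sets, and all 5 rose in root explants (median 0.86, from 0.49 for PRPS10 to 1.15 for PRPL3), as did 36.2%. The signal of PRPL3 went from a mean of 15185 to 3247 in aerial and from 636.2 to 1424 in root explants. Of 48 listed nuclear subunits of photosynthetic complexes 10 were measured. All 10 fell in aerial explants (median −2.90), against the same 18.6%. In root explants 1 fell (PETM, −0.82) and 0 rose (median −0.27). Of all tested probe sets 36.2% rose there, and 57.1% were called in either direction.

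RPOTmp, a phage-type RNA polymerase found in plastids and mitochondria, was the only gene matched of 8 listed polymerases and sigma factors. It rose in root explants at 96 h by 1.52 ± 0.388 (mean signal 31.8 to 121.7, adjusted p = 0.00148), and its change of 0.73 ± 0.388 in aerial explants did not pass the test (adjusted p = 0.132). FTSZ2-1, a component of the plastid division ring and the only matched gene of 12 listed for plastid division and DNA replication, rose in root explants by 1.11 ± 0.190 and fell in aerial explants by 1.14 ± 0.190.

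Other measures moved with the aerial fall. The 6 nuclear markers of green aerial tissue include 2 of the 10 photosynthetic subunits. Their summed signal in aerial explants went from between 65361 and 89384 at 0 h to between 7420 and 10082 at 96 h. All 6 fell, against 18.6% of all tested probe sets. In root explants their sum lay between 240.0 and 466.3 at all times. Most of the aerial sum came from RCA, LHCB4.2 and PSAN, with means of 31816, 25745.9 and 15487.5 at 0 h. The aerial means of YAB3, YAB5 and SPCH went from 1005.5, 290.5 and 131.7 at 0 h to 238.8, 122.9 and 9 at 96 h. The 3 callus markers LBD16, LBD29 and PUCHI rose in both organs at 96 h. The part of a change in cell or tissue make-up in the fall of the plastid genes was not tested. The 25S ribosomal RNA probe set read 7999 to 9192 in aerial explants at 0 h and 7336 to 9286 at 96 h, and for the GAPDH control the 3′ probe set exceeded the 5′ probe set by 0.36 to 0.96 (log2) at 0 h and by 0.29 to 0.65 at 96 h. The same measure for the actin control did not overlap between the times. It was 4.71 to 5.02 at 0 h and 3.78 to 4.70 at 96 h in aerial explants, lower at 96 h, and 4.16 to 4.38 at 0 h and 4.78 to 5.39 at 96 h in root explants, higher at 96 h. Its part in the changes of the plastid genes was not tested.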

How the data were processed

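Signal was measured on 30 one-colour ATH1 arrays, 3 for each of 10 groups read from the titles. The deposited values are MAS5 signal, a background-corrected intensity per probe set, per the submitters' processing notes, which name no version. The deposited table gives 1 value per probe set and array, and every array's mean after trimming 2% at each end was 500 or 500.1. Symbols come from the platform annotation, and gene order from RefSeq (TAIR10.1), whose coordinates are not printed because the files name no build. The table held 0 columns without a sample.

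From the deposited signal, log2(signal + 22) was computed, 22 being the 20th percentile of all values, so fold changes of dim genes are understated. The 64 control probe sets were left out, and probe sets with at least 3 arrays above 87.4, the 40th percentile, were kept (16765). limma 3.58.1 in R 4.3.3 fitted the 10 group means together (lmFit, eBayes with trend), with two-sided tests adjusted by the Benjamini-Hochberg method within each comparison. The code was tested on simulated data. Alternatives were a pseudocount of 100 or none, a filter at the 60th percentile or none, centred or quantile-normalized arrays, no trend, a replicate block (common to both organs or, added after the data were seen, within each organ), no _s_at or _x_at probe sets (0 of the 67 are such), and each array left out in turn.

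The genes, lists and alternatives were chosen with earlier results of these data known. Values of single arrays are given for key genes (rbcL, psbA, psaA, psaB, psbB, petB, atpB, atpA, rpoA, rpoB, rpoC1, rps2, rps14, accD, clpP and matK; ndhB, rpl2, ycf1 and ycf2 have no probe set under the rule) and for the called gene with the largest rise and the largest fall at 96 h in each complex and organ; others are named where they stand against their class. At times not compared, arrays of these genes are given as ranges or in the plots. The steps between later times and the transcription units were added after the values were seen. Of the nuclear lists, those for the proteins associated with the plastid polymerase (15 genes), plastid RNA processing (12) and greening regulators (5) had 0 matched genes.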

Additional observations from a re-analysis of the deposited data

Results flagged for a closer look

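At 96 h the root and aerial changes from 0 h differed, by limma's test of the difference itself, for 19 genes followed by single arrays. Over all 63 tested genes the root change was higher than the aerial change for 44, against 29% of all tested probe sets. Several of the 19 were named for the largest called aerial fall at 96 h, which enters this difference. The count of 19 is therefore not independent of how the genes were picked. The root change minus the aerial change was 3.34 for rbcL, 3.26 for rpoC2, 3.17 for psbN, 3.05 for rps2, 2.85 for rpoC1, 2.74 for psbZ, 2.71 for rpl16, 2.35 for ycf3, 2.32 for matK, 2.30 for atpI and 2.29 for rpoA on the log2 scale. It was 1.77 for psbB, 1.71 for atpA, 1.69 for ndhJ, 1.52 for ndhC, 1.42 for psaI, 1.23 for petB, 1.12 for atpB and 1.00 for psaB. The adjusted p ran from 2.63e-09 for rbcL to 0.0461 for psaB. In root explants psbN lay between 6.3 and 74.0 and atpI between 0.7 and 52.0 in all arrays, below the 87.4 of the filter, and psbB (9.3 to 107.2) and ndhJ (22.2 to 141.3) lay near it. For psbN and atpI a fall in root explants could not be measured at such signals, and for psbB and ndhJ hardly. The values of these 4 genes rest mainly on the aerial fall. Among the 19 the calls of psaB, atpI, ndhJ and psaI were lost in at least 1 other setting. Dixon's outlier test needs groups of at least 4 arrays and was not run.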

How the results depend on the processing

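No recomputed called change of a named gene reversed under the 41 alternatives. A count cannot reverse, and some counts moved widely. Leaving out 1 array took the aerial count at 12 h from 22 to as few as 7. It took the root count at 96 h from 6 to as few as 1. When single arrays were left out, the count of genes that fell in aerial explants at 96 h lay between 50 and 58, and the counts of genes that differed between root and aerial explants at the 5 times lay between 53 and 55, 51 and 55, 43 and 50, 41 and 46, and 29 and 36. With no pseudocount 11 photosynthesis genes fell in aerial explants at 24 h, the change differed between organs for 2 genes at 12 h, and the photosynthesis mean minus the gene-expression mean, root minus aerial at 96 h, was −1.16 (−0.997 with 22). With a pseudocount of 100 the root count at 24 h was 2, the difference between organs at 12 h held 8 genes, and that balance, root minus aerial, was −0.25 at 0 h (−0.44 with 22) and −0.79 at 96 h. With the filter at the 60th percentile the balance in root explants changed by −0.60 from 0 h to 48 h (−0.44 otherwise), and with quantile normalization 3 genes were called in root explants at 12 h. Without the 2 low aerial arrays together the called genes numbered 8, 9 and 11 in root explants at 12, 24 and 96 h, 8 in aerial explants at 12 h (3 photosynthesis and 5 gene-expression genes) and 19 at 24 h (5 photosynthesis genes), and 7 gene-expression genes rose in root explants at 48 h; the cause was not tested. Leaving out 1 array gave 1 to 7, 2 to 7 and 1 to 8 genes in root explants at 12, 24 and 96 h, and 7 to 25, 17 to 38 and 13 to 32 in aerial explants at 12, 24 and 48 h. Of these, 3 to 8 photosynthesis and 4 to 15 gene-expression genes were called in aerial explants at 12 h, and 5 to 20 photosynthesis genes at 24 h. The difference between organs at 12 h held 2 to 9 genes, and the F test over the root course 8 to 17.

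The labels do not say that replicate numbers pair the arrays. Deviations of same-numbered arrays from their group means correlated at 0.0597 on average (over 0.1 in 33 of 135 pairs), and within an organ at 0.114 in root (13 of 30 pairs) and 0.0956 in aerial explants (14 of 30), so no pairing was taken as given. In root explants replicate 2 had the highest and replicate 1 the lowest photosynthesis mean at all 5 times, and in aerial explants replicate 2 the lowest at 4 of 5, a hint from the data of an order within an organ. With a replicate block common to both organs 57 genes were called in aerial explants at 96 h, and no count moved by over 1.5 times. With a replicate block within each organ, added after the data were seen, 9, 9, 14 and 12 genes were called in root explants at 12, 24, 48 and 96 h, 11 photosynthesis genes fell in aerial explants at 12 h, the organs' changes differed for 10 genes at 12 h, and the F test over the root course called 22. Signals near background in root explants limit what small changes could be seen.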

Other observations

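A further 10 plastid probe sets fell outside the rule, because the annotation gives them several symbols (2 for rps12 and 1 each for rpl2, rpl23, ycf1, ycf2, ndhB and rps7, mostly genes of the inverted repeat) or because their symbol is not in it (ccsA and cemA). In aerial explants at 96 h 6 of the 10 fell, against 18.6% of all tested probe sets, and 0 rose, with a median change of −0.89. The largest falls were those of ccsA, which acts in cytochrome c maturation (−2.31), cemA, an envelope membrane protein (−2.31), and ycf1 (−2.20). In root explants at 96 h 2 of the 10 rose, ycf1 by 1.15 and ccsA by 0.80, a share below the 36.2% of all tested probe sets that rose.

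The mitochondrial genome gave 23 probe sets, of which 19 were tested. At 0 h 14 were higher in root than in aerial explants (median difference 1.24), as were 31.9% of all tested probe sets, where 54 of 63 plastid genes were lower. In root explants at 96 h 11 had fallen and 0 had risen (median −0.85), against 21% of all tested probe sets that fell, and in aerial explants 1 had fallen and 1 had risen (median 0.17). The root change was below the aerial change for 10 mitochondrial probe sets, against 23% of all tested probe sets, and for 0 of the plastid-encoded genes at that time.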
